A study of Mus musculus with 4 samples.

Results

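Inflammasomes are protein complexes of the innate immune system, and 9 genes that build or execute them were followed in mouse myeloid RNA-seq libraries. They encode 5 sensors (Nlrp3, Nlrc4, Nlrp1b, Aim2 and Mefv), the adaptor Pycard, the inflammatory caspases Casp1 and Casp4, and the pore-forming protein Gsdmd. Members were taken by gene symbol, and all 9 were found among the 24706 genes of each library. The 4 libraries are labelled as myeloid cells, 2 of genotype wt and 2 of genotype cko, for which the study's text gives newborn PD-1f/f mice, called wild-type in its methods, and PD-1f/f; LysM-Cre mice. By this account both groups carry the floxed Pdcd1 allele, the gene of the inhibitory receptor PD-1, and only the cko mice carry Cre, which is driven by the Lyz2 locus in monocytes, macrophages and neutrophils. The comparison asks how RNA levels differ between these genotypes. Deletion of PD-1 and the presence of Cre at the Lyz2 locus go together in it and cannot be told apart. One passage of the study describes sorted CD11b+ liver cells at P3, another fetal liver RNA at P2, and no source used here states whether libraries came from separate animals or pools. P-values therefore measure the spread between these libraries, which may be technical.

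An inflammasome forms when a sensor meets its trigger and recruits caspase-1, often through the adaptor ASC, the product of Pycard. Caspase-1 matures interleukin-1β and interleukin-18 and cleaves gasdermin D, whose amino-terminal part opens pores in the plasma membrane and causes pyroptosis, a lytic cell death. Caspase-11, the product of mouse Casp4, binds cytosolic lipopolysaccharide directly and cleaves gasdermin D without an upstream sensor. In macrophages and monocytes the transcripts of Nlrp3, Casp4 and Il1b are induced by Toll-like receptor and interferon signals, a step called priming, whereas activation takes place at the protein level and leaves no direct mark in RNA.

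The start regions of the genes show which binding motifs for priming factors stand at each. RefSeq starts (GRCm38.p6) were matched for 8 of the 9 members, Gsdmd being the exception, and the 250 bases before each start were searched on both strands. Nlrp3, Casp4 and Nlrp1b each have more than one start in RefSeq. The windows of the 3 sensors and caspases with the largest differences between the groups, and that of Casp1, the neighbour of Casp4, are shown 5′ to 3′ on the strand of the gene with motif matches in capitals. The Casp4 window lies at chr9:5308599-5308848 (plus strand), Nlrp3 at chr11:59541319-59541568 (plus), Mefv at chr16:3718125-3718374 (minus) and Casp1 at chr9:5298267-5298516 (plus).
Casp4: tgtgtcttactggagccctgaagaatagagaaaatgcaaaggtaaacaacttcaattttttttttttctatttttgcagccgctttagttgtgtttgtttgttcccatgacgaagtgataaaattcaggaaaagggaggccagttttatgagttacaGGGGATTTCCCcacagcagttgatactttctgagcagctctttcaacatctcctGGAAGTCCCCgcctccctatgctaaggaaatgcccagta
Nlrp3: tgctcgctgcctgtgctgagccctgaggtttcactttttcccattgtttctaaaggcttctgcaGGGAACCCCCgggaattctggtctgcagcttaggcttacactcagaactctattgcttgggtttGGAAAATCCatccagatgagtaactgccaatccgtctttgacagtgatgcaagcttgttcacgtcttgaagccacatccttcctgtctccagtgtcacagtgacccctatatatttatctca
Mefv: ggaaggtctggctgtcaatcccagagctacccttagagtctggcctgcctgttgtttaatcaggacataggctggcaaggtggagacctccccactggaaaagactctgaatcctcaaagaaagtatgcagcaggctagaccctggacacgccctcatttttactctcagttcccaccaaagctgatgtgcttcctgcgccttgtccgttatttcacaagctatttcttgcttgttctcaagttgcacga
Casp1: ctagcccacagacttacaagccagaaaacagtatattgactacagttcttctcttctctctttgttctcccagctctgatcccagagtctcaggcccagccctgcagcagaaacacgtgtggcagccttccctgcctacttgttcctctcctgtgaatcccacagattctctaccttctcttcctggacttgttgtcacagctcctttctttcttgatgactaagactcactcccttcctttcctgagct

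The Casp4 window held 3 matches to the NF-κB consensus, 2 of them overlapping within one run of capitals whose first base lies 93 bases upstream of the start, and the third 39 bases upstream. The Nlrp3 window shown held 1 consensus match 186 bases upstream and 1 match to the looser pattern GGANNTTCC 122 bases upstream, whereas the window of its other RefSeq start (chr11:59542436-59542685) held no match to any motif searched. The window of the other Casp4 start (chr9:5308610-5308859) overlaps the one shown and holds the same 3 matches. The consensus was searched after the Casp4 window had been read, and it occurs in 7.25% of all 32851 RefSeq windows, the looser pattern in 3.59%. Neither the Mefv nor the Casp1 window held a match to any motif searched. The interferon-stimulated response element GAAANNGAA (7.13% of all windows) and the AP-1 motif TGANTCA (6.75%) were found in no member's window. GAGGAAGT, bound by the myeloid factor PU.1 and present in 2.44% of all windows, was found at Aim2 113 bases upstream, at Nlrp1b 96 bases upstream of one of its starts, with no match in the window of the other, and at Pycard 44 bases upstream, where it stands on the opposite strand.
Aim2: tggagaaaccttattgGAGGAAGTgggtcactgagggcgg
Nlrp1b: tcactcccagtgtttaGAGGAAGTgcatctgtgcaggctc
Pycard: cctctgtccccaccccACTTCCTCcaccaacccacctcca

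The C/EBP pattern TTGCNNAA, in 9.56% of all windows, was found at Nlrc4, Nlrp1b and Pycard. These matches describe letters in the windows and were not tested for binding.

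The libraries held between 17691505 and 22212407 counted reads, so that 1 read in a gene of 1 kb equals 0.0450 to 0.0565 FPKM (fragments scaled by transcript length and library depth, a level per length). Pdcd1, the targeted gene, stood at 28.5 and 34.7 FPKM in the wt libraries and at 17.1 and 21.4 in the cko libraries (log2 fold change -0.69, limma adjusted p = 0.218). Lyz2, which carries Cre in the cko mice, stood at 31306 and 32147 FPKM in wt and at 10422 and 8127 in cko. The myeloid marker Itgam (CD11b) was at 48.5 to 54.3 FPKM and the leukocyte marker Ptprc (CD45) at 58.1 to 75.1 FPKM in all 4 libraries. Single libraries stood apart from their group. In wt replicate 2 alone there were transcripts of the Y chromosome (Ddx3y 24.9 FPKM, against 0.00866 or less elsewhere), and Xist was at 0.0119 FPKM there against 4.91 or more in the others. Cko replicate 2 lay at 37.4 on the first principal component (55.1% of the variance) where cko replicate 1 lay at 11.4 and the wt libraries at -26.7 and -22.2. Fold changes of single genes without cko replicate 2 are therefore given where they differ by over 1.5 times. Median fold changes over the members and gene lists were not taken without it.

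None of the 8 members that could be tested differed between the groups at an absolute log2 fold change of 1 with an adjusted p under 0.05 (limma on log2(FPKM + 1), Benjamini-Hochberg over 10779 genes), and 0.0% of all tested genes did. Over all tested genes 1768 had an unadjusted p under 0.05, and voom of limma on recovered reads called 2 genes, Lyz2 and Gm28875, neither of them a member. Fits are on this scale throughout, which understates differences of low genes. At an unadjusted p under 0.05, 3 of the 8 were higher in cko (Nlrp3, Mefv and Casp4), against 11.4% of all tested genes, and none was lower, against 4.95%. Of the 9 members, 5 had both cko libraries above both wt libraries (Nlrp3, Nlrc4, Mefv, Pycard and Casp4), none had both below, and 4 overlapped (Nlrp1b, Aim2, Casp1 and Gsdmd). Over all tested genes, 33.6% had both cko libraries above and 18.0% both below. The median log2 fold change was 0.30 over the members and 0.092 over all tested genes, and 60.4% of the latter were above 0, as were all 9 members. In cko replicate 1, Nlrp1b (-0.076) and Casp1 (-0.065) lay below the wt mean on the log2 scale. With 2 libraries a group, an exact permutation of the labels cannot give a two-sided p under 0.333 for any single gene.

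**Figure D1:**
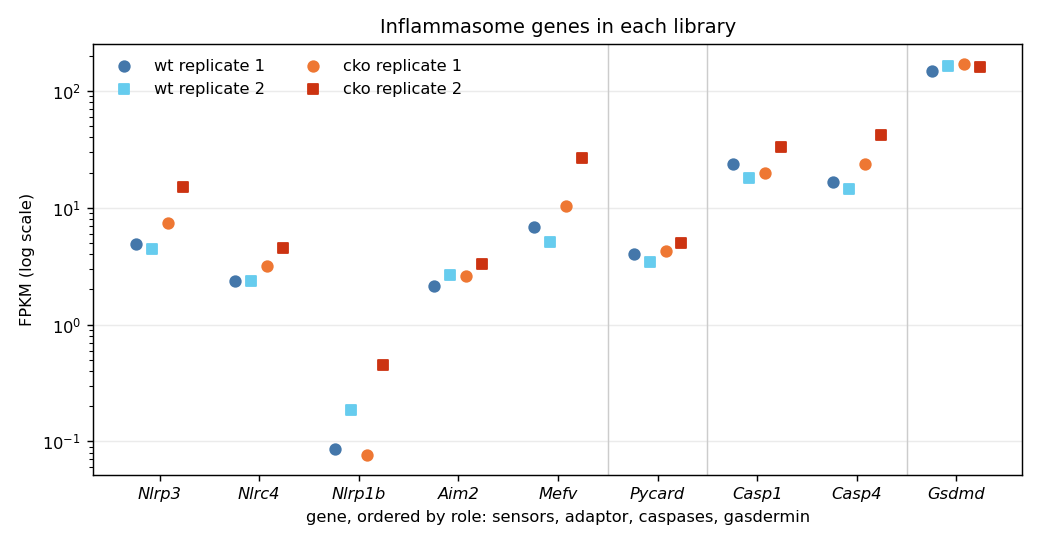
FPKM (log scale) of the 9 inflammasome genes in each of the 4 libraries, ordered by role. Gsdmd was the highest member in every library (148 to 172 FPKM) and Nlrp1b the lowest (0.0762 to 0.448 FPKM), and cko replicate 2 held the highest value of every gene but Gsdmd.

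Ranked by mean FPKM over the 4 libraries, Gsdmd (162) stood far above Casp4 (24.3) and Casp1 (23.8), followed by Mefv (12.3), Nlrp3 (7.93), Pycard (4.19), Nlrc4 (3.11), Aim2 (2.68) and Nlrp1b (0.199). The same order was found within each library, except that Casp1 lay above Casp4 in both wt libraries and Aim2 above Nlrc4 in wt replicate 2. Across libraries the ranges of all neighbours in this order overlapped, other than those of Gsdmd with the caspases and of Aim2 with Nlrp1b. The order between genes also rests on the exon lengths that FPKM divides by, such as 3800 bases for Pycard and 1497 for Casp1. In bulk libraries a lower share of expressing cells and less RNA per cell cannot be told apart.

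Nlrp3 (ENSMUSG00000032691, chr11:59541568-59566956, plus strand) encodes the sensor that responds to potassium efflux and many forms of membrane damage. It was measured at 4.86 and 4.47 FPKM in the wt libraries and at 7.46 and 14.9 FPKM in the cko libraries, from 438, 341, 567 and 1073 reads. Both cko libraries lay above both wt libraries, and cko replicate 2 lay far above the rest. The log2 fold change was 1.04 (SE 0.32, limma adjusted p = 0.240), with group means of 4.66 ± 0.279 FPKM and 11.2 ± 5.30 FPKM (SD, n = 2 each), and it was 0.58 without cko replicate 2.

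Mefv (ENSMUSG00000022534, chr16:3707215-3718124, minus strand) encodes pyrin, which senses the inactivation of RhoA by bacterial toxins. Its values were 6.89 and 5.08 FPKM in wt and 10.5 and 26.6 FPKM in cko. As for Nlrp3, the groups did not overlap and cko replicate 2 stood alone at the top. Mefv had the largest fold change among the tested members, 1.36 on the log2 scale (SE 0.42, limma adjusted p = 0.246), which was 0.73 without cko replicate 2.

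Nlrc4 (ENSMUSG00000039193, chr17:74426295-74459108, minus strand) forms the inflammasome for flagellin and type III secretion proteins, which reach it through NAIP co-sensors. It was measured at 2.35 and 2.38 FPKM in wt and at 3.16 and 4.55 FPKM in cko. The wt libraries were nearly level and both cko libraries lay above them. The log2 fold change was 0.51 (SE 0.22, limma adjusted p = 0.331), and 0.31 without cko replicate 2. A processed pseudogene (CT033749.1) lies within Nlrc4 on the same strand, so that some reads could belong to it.

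Aim2 (ENSMUSG00000037860, chr1:173350879-173466040, plus strand) encodes the sensor of cytosolic double-stranded DNA. Its 168, 176, 171 and 204 reads gave 2.16 and 2.67 FPKM in wt and 2.61 and 3.29 FPKM in cko. The groups overlapped, since wt replicate 2 lay above cko replicate 1. The log2 fold change was 0.21 (SE 0.22, limma adjusted p = 0.653), and 0.082 without cko replicate 2. Aim2 overlaps Cadm3 on the opposite strand, and the counting is not stated to use strand.

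Nlrp1b (ENSMUSG00000070390, chr11:71153102-71230733, minus strand) encodes the sensor that is activated by anthrax lethal factor and held in check by the peptidases DPP8 and DPP9. It had only 12, 22, 9 and 50 reads in wt replicates 1 and 2 and cko replicates 1 and 2, or 0.0857, 0.185, 0.0762 and 0.448 FPKM. Per 1000000 counted reads of the library these are 0.540 reads (95% Clopper-Pearson interval 0.279 to 0.944), 1.17 (0.732 to 1.77), 0.480 (0.220 to 0.912) and 2.83 (2.10 to 3.73), intervals that cover counting error only. The groups overlapped, and the interval of cko replicate 2 lay above those of the other libraries, while the lowest value was in cko replicate 1. Nlrp1b lay under the minimum mean of 1 FPKM, and in a fit without this minimum its log2 fold change was 0.14 (limma adjusted p = 0.760), with cko replicate 1 at -0.076 against the wt mean on the log2 scale. It has close paralogs, Nlrp1a among them, between which reads could be split.

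Pycard (ENSMUSG00000030793, chr7:127989708-127993867, minus strand) encodes ASC, which links sensors to caspase-1 and assembles into the ASC speck. Its 339, 245, 305 and 339 reads gave 4.02 and 3.43 FPKM in wt and 4.28 and 5.04 FPKM in cko. The groups were apart by a small margin, and the log2 fold change was 0.26 (SE 0.19, limma adjusted p = 0.511), and 0.17 without cko replicate 2. This separation was lost when libraries were scaled by the median of ratios, which left Nlrp3, Nlrc4, Mefv and Casp4 as the 4 members with both cko libraries above both wt libraries, against 25.3% of all tested genes. A tentative transcript model (Gm45205) overlaps the start of Pycard on the opposite strand.

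Of the sensors, the 3 whose groups did not overlap were set against the adaptor, and relative to it these stood higher in both cko libraries. No such ratio was taken for Aim2 or Nlrp1b, which do not share the pattern. Between wt replicate 2 and cko replicate 1, Aim2 went from 2.67 to 2.61 FPKM and Nlrp1b from 0.185 to 0.0762. Pycard went from 3.43 to 4.28 FPKM. The size of a ratio rests on the lengths FPKM divides by, 3800 bases for Pycard and 4057 for Nlrp3. Its difference between libraries does not. The ratio of Nlrp3 to Pycard FPKM was 1.21 and 1.30 in wt and 1.74 and 2.96 in cko. The ratio of Mefv to Pycard was 1.72 and 1.48 in wt and 2.44 and 5.28 in cko, and that of Nlrc4 to Pycard was 0.584 and 0.695 in wt and 0.737 and 0.902 in cko. All 3 ratios were above both wt values in each cko library, and they do not depend on scaling between libraries. These ratios were chosen after the values were seen and are given without a test.

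Casp1 (ENSMUSG00000025888, chr9:5298517-5307265, plus strand) and Casp4 (ENSMUSG00000033538, chr9:5308828-5336783, plus strand) are neighbours, with 1562 bp between the end of Casp1 and the start of Casp4. Casp1, whose product is the protease of canonical inflammasomes, was at 23.8 and 18.0 FPKM in wt and at 19.7 and 33.5 FPKM in cko. Its groups overlapped, with cko replicate 1 between the wt libraries, and the log2 fold change of 0.30 (SE 0.28, limma adjusted p = 0.623) turned to -0.065 without cko replicate 2. Casp4, whose product is the lipopolysaccharide receptor caspase-11, was at 16.8 and 14.6 FPKM in wt and at 23.9 and 41.9 FPKM in cko, from 1384, 1021, 1661 and 2751 reads. Both cko libraries lay above both wt libraries, with means of 15.7 ± 1.54 FPKM in wt and 32.9 ± 12.7 FPKM in cko (SD, n = 2 each). The log2 fold change of Casp4 was 0.97 (SE 0.28, limma adjusted p = 0.230), and 0.58 without cko replicate 2.

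**Figure D2:**
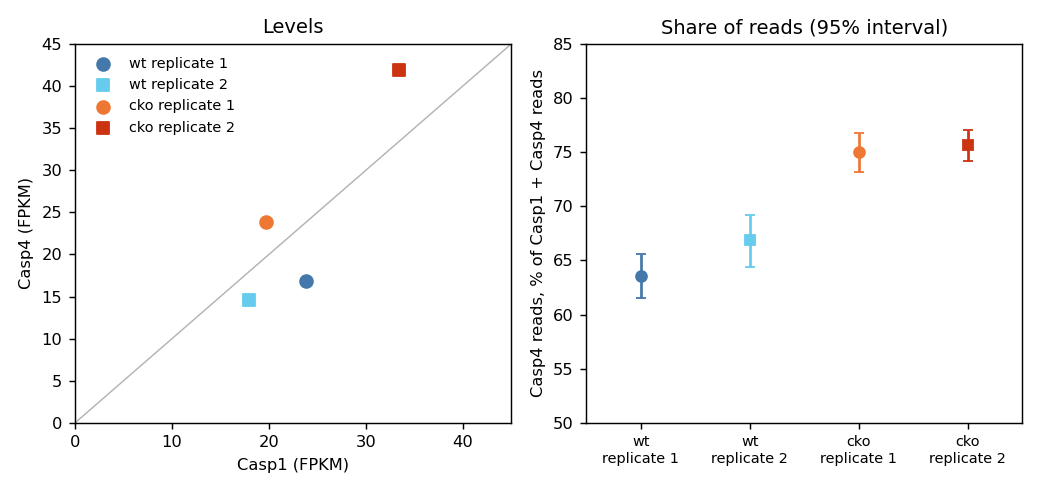
Left, Casp4 against Casp1 (both in FPKM) in each library, with the line of equal values. Right, Casp4 reads as a percent of Casp1 and Casp4 reads together, with 95% Clopper-Pearson intervals (counting error alone) and an axis that starts at 50%. Both wt libraries lie below the line and both cko libraries above it, with shares of 63.6% and 66.9% in wt and 75.0% and 75.6% in cko. The side of the line rests on the gene lengths that FPKM divides by.

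The balance between the neighbouring caspases was nearly the same in both cko libraries, although the level of each gene was not. The Casp4 to Casp1 ratio of FPKM was 0.704 and 0.814 in wt and 1.21 and 1.25 in cko. Which gene is the higher depends on the lengths used, 3710 bases for Casp4 and 1497 for Casp1. In FPKM, Casp1 was the higher in both wt libraries and Casp4 in both cko libraries. By reads Casp4 was the higher in every library. Casp4 reads made up 63.6% (95% Clopper-Pearson interval 61.5 to 65.6) and 66.9% (64.4 to 69.2) of the reads of both genes in wt, and 75.0% (73.1 to 76.8) and 75.6% (74.2 to 77.0) in cko. These intervals cover counting error within a library and not the spread between libraries. The ratio was chosen after the values were seen and has no test. Casp12, the next gene of the cluster (chr9:5345430-5373032), was at 0.368 FPKM or less in every library.

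Gsdmd (ENSMUSG00000022575, chr15:75862339-75867404, plus strand), the executor of pyroptosis, was measured at 148 and 165 FPKM in wt and at 172 and 162 FPKM in cko. The groups overlapped and the libraries lay close together, with means of 156 ± 12.4 FPKM and 167 ± 7.26 FPKM (SD, n = 2 each). Its log2 fold change was 0.093 (SE 0.14, limma adjusted p = 0.764), and -0.014 under median-of-ratios and -0.052 under quantile scaling, so that no direction can be given. Relative to Gsdmd, Casp4 stood at 0.114 and 0.0885 in wt and at 0.139 and 0.259 in cko, whereas Casp1 stood at 0.162 and 0.109 in wt and at 0.115 and 0.207 in cko.

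**Figure D3:**
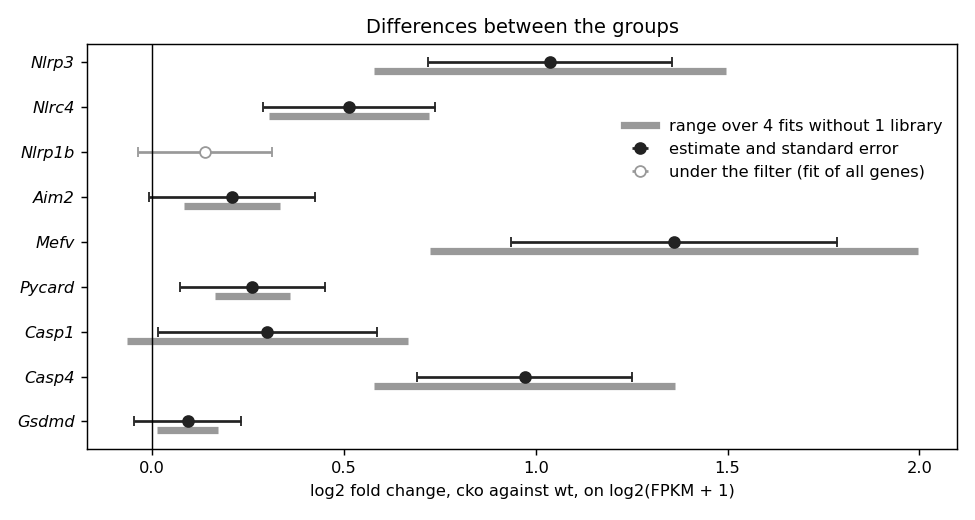
Log2 fold change of cko against wt on log2(FPKM + 1) for the 9 genes, with the standard error of the limma fit, and grey bars for the 8 tested genes that give the range over the 4 fits that each leave out 1 library. Mefv (1.36), Nlrp3 (1.04) and Casp4 (0.97) had the largest estimates, and of the 8 bars that of Casp1 (-0.065 to 0.67) crosses 0.

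Replicates of the cko group were unequal for most members. In cko replicate 1, 6 of the 9 members lay above both wt libraries (46.7% of all tested genes did), with Mefv 0.73, Nlrp3 0.58 and Casp4 0.58 above the wt mean on the log2 scale. In cko replicate 2, which held the highest value of 8 of the 9 members (33.8% of all tested genes were highest there), the same genes lay 2.00, 1.49 and 1.36 above it. Over all tested genes, 47.3% lay above both wt libraries in cko replicate 2. The differences of Mefv, Nlrp3 and Casp4 had one direction in both cko libraries and were larger in cko replicate 2. These genes were singled out for their differences in the same libraries, so the shared direction is no separate support.

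The genes whose profile over the 4 libraries was most like that of Mefv, measured as the root mean square difference of centred log2(FPKM + 1), were Tmem51 (0.0615), Gm12589 (0.0656), Srgn (0.0747), Spata13 (0.0822) and Fam26f (0.0846). Srgn, which encodes the granule proteoglycan serglycin, was at 144 and 104 FPKM in wt and at 181 and 460 FPKM in cko. Among the members, Nlrp3 (0.227, with 76 other tested genes closer) and Casp4 (0.268, with 117 closer) were nearest to Mefv. With 4 libraries such likeness is a description, and the points share libraries and depth.

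Other genes of the pathway were taken from a list of 46 that act before, beside or after the members, of which 39 passed the minimum mean of 1 FPKM. None had an adjusted p under 0.05 (limma), the smallest being 0.206 for Ripk3. At an unadjusted p under 0.05, 9 were higher in cko and 1 was lower, against 11.4% and 4.95% of all tested genes. Both cko libraries lay above both wt libraries for 19 and below for 2, against 33.6% and 18.0% of all tested genes, and overlapped for 18, and the median log2 fold change was 0.42 beside 0.092 over all tested genes. Cko replicate 2 held the highest value of 26 of the 39, against 33.8% of all tested genes. The list was chosen with earlier results of these data known, so its shares are a description and no independent support.

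Substrates and release factors had a median log2 fold change of 0.86 over 5 genes, 4 of them highest in cko replicate 2 (33.8% of all tested genes were). This median was not taken without cko replicate 2. Il1b, the precursor of interleukin-1β that caspase-1 cleaves, was at 98.1 and 43.2 FPKM in wt and at 151 and 594 FPKM in cko (log2 fold change 2.19, SE 0.70, limma adjusted p = 0.250), and 1.20 on the log2 scale without cko replicate 2. Both cko libraries were above both wt libraries, although the wt libraries themselves differed widely. Il18, the precursor of interleukin-18, overlapped between the groups, at 4.19 and 1.55 FPKM in wt and at 3.26 and 6.47 FPKM in cko (0.63, and 0.23 without cko replicate 2). Il1a, which encodes interleukin-1α and was named after its values were seen, overlapped as well, at 7.39 and 2.66 FPKM in wt and at 4.70 and 16.7 FPKM in cko. Ninj1, which mediates plasma membrane rupture after pore formation, was at 36.4 and 31.4 FPKM in wt and at 45.7 and 151 FPKM in cko (1.27, limma adjusted p = 0.315). Its value in cko replicate 1 was not far above the wt libraries, and its log2 fold change was 0.42 without cko replicate 2.

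Brakes of the pathway and of interleukin-1 had a median of 0.42 over 9 genes, 6 of which had both cko libraries above both wt libraries (33.6% of all tested genes). Il1r2, the decoy receptor that captures interleukin-1, was at 42.2 and 34.1 FPKM in wt and at 80.1 and 228 FPKM in cko (log2 fold change 1.81, SE 0.48, limma adjusted p = 0.214, and 1.06 without cko replicate 2). Il1rn, the receptor antagonist, was at 16.1 and 19.6 FPKM in wt and at 22.0 and 128 FPKM in cko (1.53, limma adjusted p = 0.372, and 0.29 without cko replicate 2). Both were thus higher in both cko libraries, as was Il1b, whereas Il1a overlapped. Il18bp, which neutralises interleukin-18, overlapped, at 6.59 and 4.90 FPKM in wt and at 3.42 and 5.14 FPKM in cko (-0.36, limma adjusted p = 0.484, and -0.60 without cko replicate 2).

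Guanylate-binding proteins and related GTPases, which expose bacterial lipopolysaccharide to caspase-11, had the highest median of the groups in the list, 1.08 over 6 genes. This median was not taken without cko replicate 2. Gbp2 was at 6.75 and 6.42 FPKM in wt and at 13.4 and 79.0 FPKM in cko (log2 fold change 2.16, SE 0.76, limma adjusted p = 0.266), and the log2 fold change was 0.92 without cko replicate 2. All 6 were highest in cko replicate 2 (33.8% of all tested genes were). For 3 of them the groups overlapped, with cko replicate 1 below wt replicate 1. For the other 3 both cko libraries lay above both wt libraries (33.6% of all tested genes). The Gbp genes form a family of similar sequences between which reads could be split.

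The other sensors and co-sensors had a median of 0.34 over the 6 of 10 that were tested, and 4 had both cko libraries above both wt libraries (33.6% of all tested genes). Naip5, the flagellin co-sensor of Nlrc4 and also one of a gene family, was at 4.61 and 5.55 FPKM in wt and at 5.26 and 8.31 FPKM in cko, with overlapping groups (0.33, and 0.046 without cko replicate 2). Triggers and licensing factors had a median of 0.20 over 7 of 9 genes. Nek7, the kinase that bridges NLRP3 subunits, was level in all libraries at 1.88 and 1.94 FPKM in wt and 2.06 and 1.75 FPKM in cko. Brcc3, which deubiquitinates NLRP3, was at 5.50 and 4.24 FPKM in wt and at 4.09 and 3.28 FPKM in cko (-0.32, limma adjusted p = 0.469, and -0.20 without cko replicate 2).

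Other caspases and cell death kinases had a median of 0.16 over 6 of 7 genes. Casp8, which can cleave gasdermin D and the precursor of interleukin-1β, was at 39.3 and 37.2 FPKM in wt and at 47.7 and 53.2 FPKM in cko (log2 fold change 0.39, limma adjusted p = 0.276). Both cko libraries lay above both wt libraries, by less than for Casp4.

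**Figure D4:**
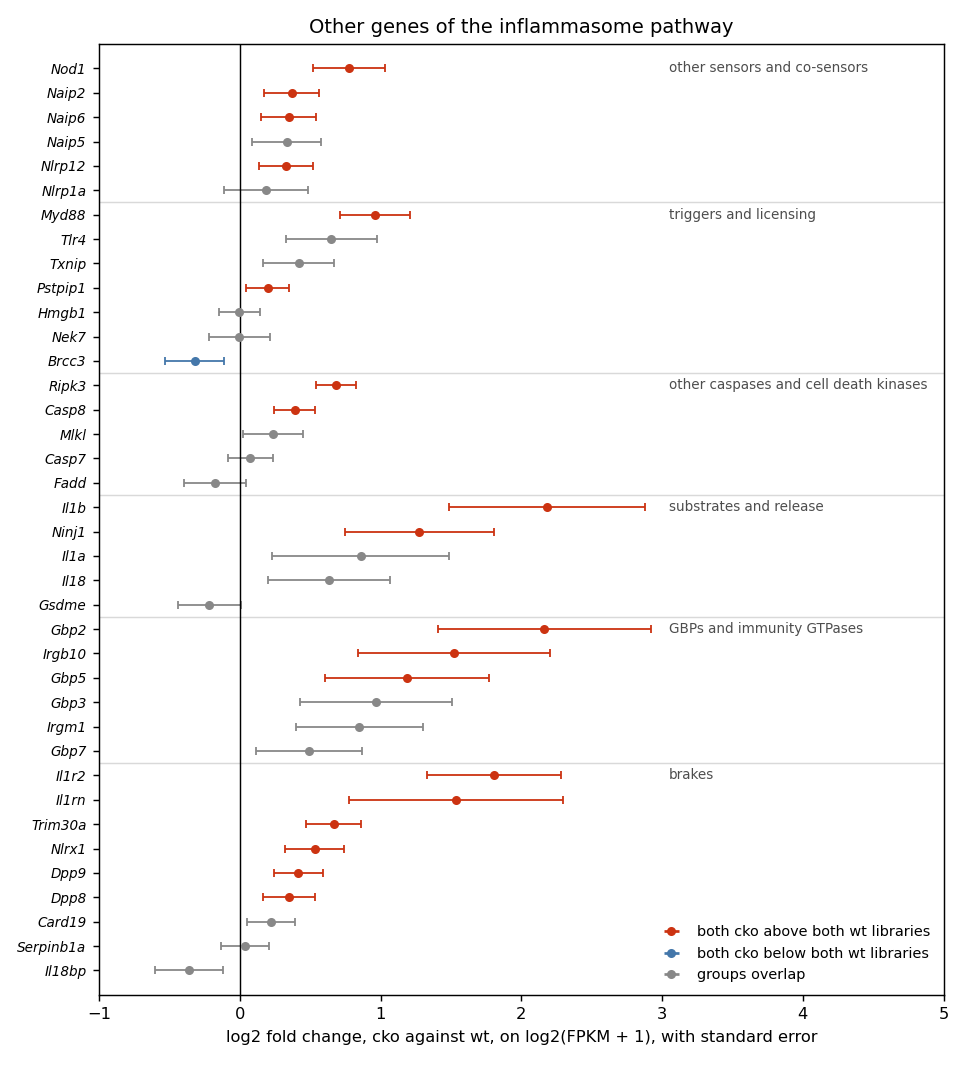
Log2 fold change of cko against wt on log2(FPKM + 1) with the standard error of the limma fit for 38 of the 39 tested genes of the pathway list, grouped by role. Red points mark the 19 genes with both cko libraries above both wt libraries, the blue point the 1 with both below and grey points the 18 that overlap, and the largest estimate is that of Il1b (2.19).

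A list drawn from the deposited gene ontology terms, namely all genes with a term that names the inflammasome or pyroptosis, held 33 genes including all 9 members. Of the other 24, 18 were tested, and 12 had both cko libraries above both wt libraries and 2 both below (33.6% and 18.0% of all tested genes). Their median log2 fold change was 0.37, and none had an adjusted p under 0.05 (limma). At an unadjusted p under 0.05, 5 were higher and 1 was lower (11.4% and 4.95% of all tested genes). This list shares genes with the pathway list above, Naip5 among them, so the lists are not independent.

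Markers of monocytes and macrophages were highest in cko replicate 2 as well. Monocyte markers summed to 530 and 501 FPKM in wt and to 518 and 657 FPKM in cko, and macrophage markers to 413 and 296 FPKM in wt and to 306 and 529 FPKM in cko. Of the 10 monocyte markers, 8 were highest in cko replicate 2 (33.8% of all tested genes were). The monocyte median lay 0.032 above the wt mean in cko replicate 1 and 0.72 above it in cko replicate 2 on the log2 scale. The macrophage median lay at -0.17 and 0.52. In cko replicate 1 neither median lay above both wt libraries. The tested members there ran from -0.065 (Casp1) to 0.73 (Mefv) against the wt mean. Nlrp3 and Casp4 stood at 0.58, Nlrc4 at 0.31, Pycard at 0.17, Gsdmd at 0.14 and Aim2 at 0.082. Members and marker medians were not tested against each other. Both cko libraries lay above both wt libraries for 4 of the 10 monocyte and 3 of the 12 macrophage markers (33.6% of all tested genes). Both lay below for 1 monocyte and 0 macrophage markers (18.0% of all tested genes).

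Neutrophil markers, the most abundant of the lists, summed to 161515 and 137302 FPKM in wt and to 110903 and 92162 FPKM in cko. Of the 14, 8 had both cko libraries below both wt libraries and 4 had both above (18.0% and 33.6% of all tested genes). Erythroid markers summed to 3719 and 2340 FPKM in wt and to 1425 and 1521 FPKM in cko, with 7 of 9 lower in both cko libraries. B lineage markers summed to 56.3 and 70.6 FPKM in wt and to 35.7 and 46.3 FPKM in cko, with 6 of 8 lower. Of all tested genes, 18.0% were lower in this way. Hepatocyte markers, of which Apoc3 was at 0 in a library, summed to 59.8 to 143 FPKM with 5 of 10 lower in both cko libraries (18.0% of all tested genes). Dendritic (24.6 to 36.3 FPKM), T and NK (16.9 to 27.5, with Cd3e and Cd4 at 0 in a library), megakaryocyte (10.5 to 26.1) and endothelial and stromal markers (30.2 to 36.9) summed to low levels in all libraries. Lower in both cko libraries were 5 of 8 T and NK, 4 of 7 megakaryocyte, 3 of 8 endothelial and stromal and 0 of 8 dendritic markers. This held for 18.0% of all tested genes. No marker had an adjusted p under 0.05 (limma). The part of cell composition in the differences of the inflammasome genes was not tested.

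**Figure D5:**
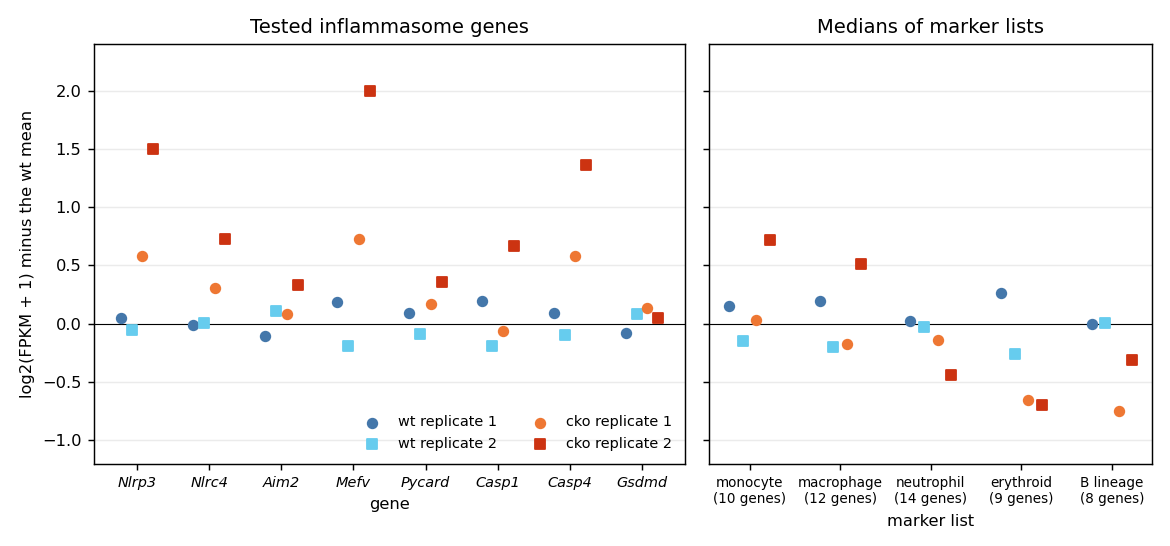
Left, log2(FPKM + 1) of the 8 tested members in each library minus the wt mean. Right, the median of the same quantity over 5 marker lists. In cko replicate 2 the medians of the monocyte (0.72) and macrophage (0.52) lists lie above both wt libraries, as do all tested members except Gsdmd. In cko replicate 1 those lists lie at 0.032 and -0.17. There Mefv, Nlrp3 and Casp4 lie at 0.73, 0.58 and 0.58, and the other tested members from -0.065 to 0.31.

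Scaling changed how the members stood against all genes. Of all tested genes with an unadjusted p under 0.05, 69.8% were higher in cko with FPKM as deposited, 51.0% under median-of-ratios scaling and 47.4% under quantile normalization. When erythroid and hepatocyte genes were removed and libraries rescaled to one total, 92.2% were higher and the median of all genes moved from 0.092 to 0.27. The rescaling also made equal the FPKM sums, which were 403900 to 491983 as deposited. The removed erythroid list held 3719 of the 491983 FPKM in wt replicate 1 and 1425 of the 412778 in cko replicate 1. Removal and rescaling were not run apart. Under each of these scalings Nlrp3, Nlrc4, Mefv and Casp4 had a positive log2 fold change (0.39 or more), whereas Gsdmd ranged from -0.052 to 0.30.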

How the data were processed

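RNA-seq of 4 libraries, 2 wt and 2 cko by their labels, was analysed. The authors deposited FPKM values for 24706 genes, with positions of which 92.61% were identical to GENCODE M21 (GRCm38), although the submitters' processing notes name build mm9 beside Bowtie2 2.2.3, TopHat2 2.0.12 and HTSeq 0.6.0. No scaling between libraries beyond that of FPKM by library depth had been applied, and FPKM sums ran from 403900 to 491983. Single-exon values were whole multiples of 1 read (tolerance 0.02 reads) in at least 99.94% of cases, from which library totals and the reads of 94.42% of genes were worked out. Read numbers of Gsdmd were not, and those of Nlrc4 and Mefv rest on an inferred length.

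The groups were compared by limma (version 3.58.1, R 4.3.3; lmFit, eBayes with trend) on log2(FPKM + 1), over 10779 genes whose mean reached 1 FPKM, with Benjamini-Hochberg adjustment and no covariate. FPKM is not a count, so a count model was not the main test. The fit was tested on simulated data. Genes named are the 9 members, the 3 largest and 3 smallest differences of the pathway list, Il1b, Il18, Il1rn, Naip5, Nek7, Casp8 and Ninj1, the 5 profiles nearest to the tested member with the largest difference, and Pdcd1 and Lyz2; Xist, Ddx3y, Itgam, Ptprc, Ripk3, Casp12, Il1a, Gm28875 and overlapping genes were added after their values were seen. Members and lists were chosen with earlier results of these data known. Intervals are 95% exact intervals. Alternatives were other pseudocounts, filters and scalings, no trend, the replicate block, voom on recovered reads and each library left out. Python 3.11.15 and matplotlib 3.10.9 made the tables and figures. The markers Ahsp and Cd8a were not analysed here, and 1 gene of the pathway list that the rule names is not reported here.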

Additional observations from a re-analysis of the deposited data

How the results depend on the processing

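No adjusted call exists to be lost among the members, and with 2 libraries a group and few reads for Nlrp1b only large differences could be shown. Of 294 values of 21 single genes under the alternatives, 288 kept the direction and side of the threshold and 6 reversed. Those were Gsdmd under median-of-ratios scaling (-0.014) and quantile normalization (-0.052), and Nek7 with erythroid and hepatocyte genes removed and libraries rescaled to one total (0.13). With 1 library left out, they were Casp1 (-0.065 to 0.67) and Nek7 (-0.082 to 0.074). The cause was not tested. Genes past a log2 fold change of 1 with an adjusted p under 0.05 numbered 0 with limma as reported, with the replicate block and with any library left out, and 2 with voom on recovered reads. The number with an unadjusted p under 0.05 was 1768 as reported, 1135 with the smaller set of genes at 5 FPKM or more and 845 to 1732 with 1 library left out (845 without wt replicate 1, 1073 without cko replicate 2). Of the members, 3 had an unadjusted p under 0.05, and 0 to 5 did with 1 library left out, where a lone library is assumed to vary like the other group (1 without wt replicate 1, 0 without wt replicate 2, 5 without cko replicate 1, 2 without cko replicate 2).

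No source used here says that replicate numbers pair the libraries. The differences between replicates 1 and 2 correlated at -0.16 across genes between the groups. The replicate block gave 0 genes past the threshold, 1247 with an unadjusted p under 0.05 and 3 members among them. A crossed replicate block, added after the data were seen, gave 1, 2255 and 3. Voom could not be run for Gsdmd, and the fits with a minimum mean could not include Nlrp1b, nor the minimum of 5 FPKM the members with lower means.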
